A study of Mus musculus with 3 samples.

Results

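The genes described here are the mouse enzymes and subunits that write and erase histone methylation, remove histone acetylation or move nucleosomes. They were taken by symbol from 7 families (Kmt, Setd, Kdm, Hdac, Chd, Smarc and Arid), which gave 77 of the 21887 protein-coding genes placed on mm10. What was asked of them is how often, and where, peaks of the transcription factor MEIS2 lay at or near them.

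MEIS2 is a TALE-class homeodomain protein that often binds DNA together with PBX proteins and takes part in forming striatal neurons. CUT&Tag directs a transposase to an antibody, so that DNA beside the bound protein is cut and can be sequenced. The assay was run on the embryonic lateral ganglionic eminence (LGE), a germinal zone that gives rise to striatal projection neurons, from wild-type mice of the outbred CD1 strain at embryonic day 14.5. There were 2 libraries made with a mouse polyclonal antibody to MEIS2 and 1 library made with no antibody. No genotype, treatment or second age was compared, and the labels do not say whether the MEIS2 libraries came from separate embryos or litters. The tissue holds progenitors and young neurons together, so a weak peak in all cells and a strong peak in a few cannot be told apart. Peaks do not measure expression, so the tissue was not checked against marker levels.

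Histone methyltransferases and demethylases set marks such as methylated H3K4, found at starts and enhancers, or methylated H3K27, found at silenced genes. Histone deacetylases act inside corepressor complexes such as NuRD, Sin3 and NCoR. SWI/SNF, CHD and ISWI remodellers use ATP to slide or evict nucleosomes, and several of their subunit genes are linked to neurodevelopmental disorders when 1 copy is lost.

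A peak was called reproducible where a peak of MEIS2 replicate 1 overlapped a peak of replicate 2 and no peak of the no-antibody library, which left 47809 peaks. The caller had used 7618406 tags in replicate 1, 6559629 in replicate 2 and 6337375 without antibody, and the lists held 78060, 82093 and 9869 peaks on the main chromosomes. An end peak has its summit within 1 kb of either end of the annotated gene, because strand was known for only 58 of the 77 genes. Fold enrichment is the peak caller's own value, the tags stacked at the summit over the number expected locally, and it is written here as replicate 1 and then replicate 2.

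The promoters of 8 of these genes are shown first, since the peaks described below sit on or beside them. Each run is the 250 bases just before the RefSeq start site, on the gene's own strand and with coordinates on GRCm38.p6, the assembly named mm10. For each family the gene was chosen whose peak overlapping its promoter had the highest fold enrichment in the weaker replicate. Setd7 is added because it alone among the matched genes holds the letters of a joint PBX and MEIS site. Capitals mark, on either strand, TGACAG (the MEIS core), TGATTGAC (PBX with MEIS), TAATTA (a homeodomain core), CCAAT and GGGCGG (an SP-family GC box).
Kmt2a (chr9:44881290-44881539, minus strand): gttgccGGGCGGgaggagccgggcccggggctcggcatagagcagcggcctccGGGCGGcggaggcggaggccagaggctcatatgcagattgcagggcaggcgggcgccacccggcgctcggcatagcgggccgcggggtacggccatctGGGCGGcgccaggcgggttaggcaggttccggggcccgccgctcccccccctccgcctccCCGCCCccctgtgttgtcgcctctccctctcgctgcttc
Setd1a (chr7:127777139-127777388, plus strand): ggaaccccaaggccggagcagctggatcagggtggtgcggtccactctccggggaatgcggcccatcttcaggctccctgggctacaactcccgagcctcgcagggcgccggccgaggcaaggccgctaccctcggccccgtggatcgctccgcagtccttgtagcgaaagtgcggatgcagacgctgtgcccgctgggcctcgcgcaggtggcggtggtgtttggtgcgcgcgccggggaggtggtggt
Kdm2b (chr5:122900351-122900600, minus strand): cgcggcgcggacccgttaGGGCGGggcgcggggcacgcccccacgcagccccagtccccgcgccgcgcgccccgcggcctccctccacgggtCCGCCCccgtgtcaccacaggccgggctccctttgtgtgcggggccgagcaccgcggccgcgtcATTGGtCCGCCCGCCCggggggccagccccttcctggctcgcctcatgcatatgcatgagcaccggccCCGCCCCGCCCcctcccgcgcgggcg
Hdac2 (chr10:36974294-36974543, plus strand): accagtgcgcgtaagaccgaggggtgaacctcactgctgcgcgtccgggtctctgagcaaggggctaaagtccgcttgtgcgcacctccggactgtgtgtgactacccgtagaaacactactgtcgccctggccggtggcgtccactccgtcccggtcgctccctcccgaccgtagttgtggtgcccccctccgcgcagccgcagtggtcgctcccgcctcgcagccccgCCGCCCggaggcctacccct
Chd8 (chr14:52257761-52258010, minus strand): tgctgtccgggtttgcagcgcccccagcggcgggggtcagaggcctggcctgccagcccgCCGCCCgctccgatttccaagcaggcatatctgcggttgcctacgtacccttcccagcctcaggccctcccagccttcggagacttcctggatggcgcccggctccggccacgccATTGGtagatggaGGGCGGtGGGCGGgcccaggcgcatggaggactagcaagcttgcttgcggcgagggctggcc
Smarca5 (chr8:80739460-80739709, minus strand): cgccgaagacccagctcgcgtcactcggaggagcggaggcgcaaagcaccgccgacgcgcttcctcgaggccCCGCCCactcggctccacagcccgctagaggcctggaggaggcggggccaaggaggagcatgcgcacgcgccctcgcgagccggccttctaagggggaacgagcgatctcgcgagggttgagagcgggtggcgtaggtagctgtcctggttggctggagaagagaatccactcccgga
Arid3b (chr9:57836485-57836734, minus strand): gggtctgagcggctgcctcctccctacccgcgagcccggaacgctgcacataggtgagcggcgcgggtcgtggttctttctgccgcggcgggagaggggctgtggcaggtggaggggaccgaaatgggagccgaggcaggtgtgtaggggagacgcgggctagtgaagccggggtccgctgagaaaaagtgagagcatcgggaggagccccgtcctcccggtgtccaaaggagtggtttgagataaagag
Setd7 (chr3:51560824-51561073, minus strand): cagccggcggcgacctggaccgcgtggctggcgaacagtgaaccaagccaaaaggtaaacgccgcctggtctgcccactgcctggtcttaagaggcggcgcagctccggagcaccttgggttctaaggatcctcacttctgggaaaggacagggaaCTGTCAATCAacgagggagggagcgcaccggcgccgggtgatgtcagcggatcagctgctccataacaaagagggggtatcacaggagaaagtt

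The peak at the Smarca5 start, chr8:80738883-80739821, had a fold enrichment of 12.4 and 11.3, and its summit lay 56 bases before the start. In Chd8 the summit was 2 bases before the start, in Setd1a 63, in Kdm2b 68, in Hdac2 75 and in Kmt2a 209 bases before it. Kdm2b has a further start close by, and the summit lay 51 bases before that one. The Arid3b summit was 269 bases before the start of the run shown and 26 bases after a second RefSeq start of the gene, whose own 250 bases held GGGCGG 7 times and CCAAT once. The Setd7 summit was 340 bases after the start. None of the 7 family promoters held TGACAG, TGATTGAC or TAATTA in these 250 bases, and GGGCGG was present 4 times in Kmt2a, 6 times in Kdm2b, 3 times in Chd8, 1 time each in Hdac2 and Smarca5, and not in Setd1a or Arid3b. The G and C content of the 7 ran from 65.6% in Arid3b to 80.8% in Kdm2b, and Setd7 had 60.4%.

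Across all 32851 RefSeq promoter stretches of this length, TGACAG was found in 15.9%, TGATTGAC in 0.691%, TAATTA in 4.84%, CCAAT in 33.8% and GGGCGG in 32.7%. The 58 matched genes had 78 such stretches, of which 8 held TGACAG, 1 held TGATTGAC, none held TAATTA, 28 held CCAAT and 51 held GGGCGG. The 8 with TGACAG belonged to Chd9, Hdac5, Hdac7, Hdac8, Kmt5c, Setd7, Smarca1 and Smarca2. Only 75.3% of the 77 genes had an entry, under the 80% set for such a check, so a comparison of motifs or base composition between these genes and others is void. Among the stretches of all protein-coding genes, 9664 overlapped a reproducible peak and 11599 did not. TGACAG was in 12.4% of the former and 17.9% of the latter. TGATTGAC was in 0.642% and 0.741%, TAATTA in 1.31% and 6.80%, and CCAAT in 33.1% and 37.3%. GGGCGG went the other way, with 70.6% and 19.4%, and 42.6% of all 21263. The median G and C content was 64% and 48.8%. Whether base composition bears on the peaks was not tested.

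MEIS2 peaks lay at the ends of most of these genes. A reproducible end peak was present at 60 of 77 genes (77.9%, 95% Wilson interval 67.5% to 85.7%), against 52.4% of all protein-coding genes. Replicate 1 alone had an end peak at 62 of them, where the share of all genes was 60.4%, and replicate 2 alone at 64, where it was 55.3%. The no-antibody library had one at 1 gene, Setd4, and at 0.27% of all genes. Here and in the family and distal counts, single-replicate values leave out peaks that overlapped a no-antibody peak. The intervals cover counting error only, and genes are not replicates of a condition, so no test was made.

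The genes are also longer than most. Their median length was 51.5 kb and that of all protein-coding genes 17.2 kb. All genes were put in 4 length classes of equal number. In the longest class 65.5% of all genes had an end peak and 32 of the 44 chromatin genes in it did. In the next class the values were 58.6% and 22 of 26, and in the one below it, from 5.67 to 17.2 kb, 51.5% and 6 of 6. The single chromatin gene of the shortest class, Hdac10, had none, where 33.9% of all genes had one. The share within the 3 longer classes was thus higher than that of all genes of like length, by the smallest margin among the longest genes. The length classes were chosen after the shares had been seen.

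Where the strand was known, the end with the peak was mostly the 5′ end. Of 58 genes, 45 had a peak at the 5′ end (77.6%) and 5 at the 3′ end (8.62%), beside 49.5% and 6.77% of the 17492 protein-coding genes with a strand. Kmt5c, Setd1a, Chd4 and Chd8 had peaks at both ends. Kmt2d, an H3K4 methyltransferase of enhancers, had its end peak at the 3′ end, 6.01 and 4.15, and that end lies beside the gene Prkag1. The only RefSeq start listed for Kmt2d is 2.87 kb inside the annotated 5′ end, and it too had a peak, 7.95 and 5.32 at chr15:98871217-98872406, which by the gene-end definition was counted as distal. In all, 13 of the 60 end peaks (21.7%) were also within 1 kb of an end of a neighbouring protein-coding gene, beside 22.3% for all genes with an end peak. Setd3 with Ccnk, Kdm1b with Tpmt, Kdm5a with Ccdc77 and Arid4b with Ggps1 are such pairs, and the peaks cannot be assigned to one gene of a pair.

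**Figure D1:**
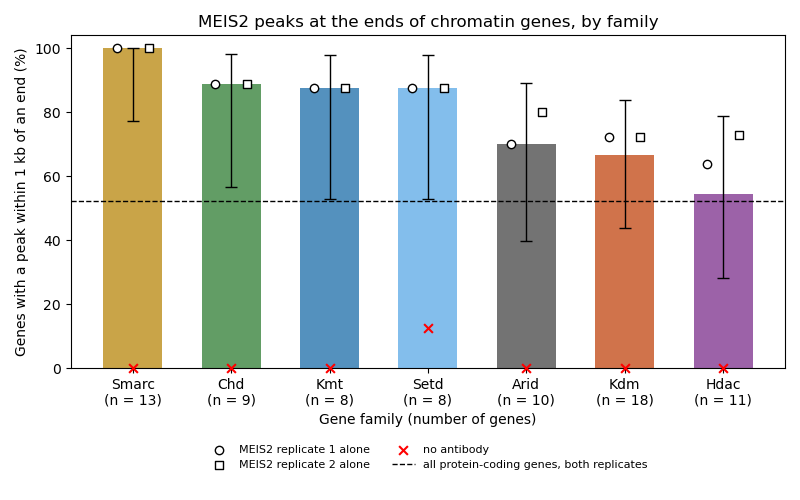
Share of genes in each family with a MEIS2 peak within 1 kb of a gene end, in percent. Bars are reproducible peaks with 95% Wilson intervals, open circles and squares each MEIS2 replicate alone, red crosses the no-antibody library, and the dashed line all protein-coding genes (52.4%). Smarc is at 100% and Hdac at 54.5%, next to the line.

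The families differed in how many of their genes had an end peak. All 13 Smarc genes had one (interval 77.2% to 100%), followed by 8 of 9 Chd genes (56.5% to 98.0%), 7 of 8 Kmt genes and 7 of 8 Setd genes (52.9% to 97.8% each). Arid had 7 of 10 (39.7% to 89.2%), Kdm 12 of 18 (43.8% to 83.7%) and Hdac 6 of 11 (28.0% to 78.7%). Every pair of these intervals overlapped, and those of Arid, Kdm and Hdac included the 52.4% of all genes. Each replicate alone gave 13 Smarc genes, 8 Chd, 7 Kmt and 7 Setd genes, while Hdac had 7 in replicate 1 and 8 in replicate 2. The plot of shares by family shows that both single libraries stand above the bars in Hdac and Kdm, and only replicate 2 does in Arid. In the other families they match the bars.

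The strength of the end peaks was that of other genes. The median fold enrichment of the weaker replicate was 6.41 over the 60 genes (quartiles 5.44 and 7.82) and 6.38 over the 11461 protein-coding genes with an end peak. By family it was highest in Smarc, 7.25, and Chd, 7.04, and lowest in Arid, 4.60. The peaks had a median width of 740 bp in replicate 1 and 613 bp over all genes.

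**Figure D2:**
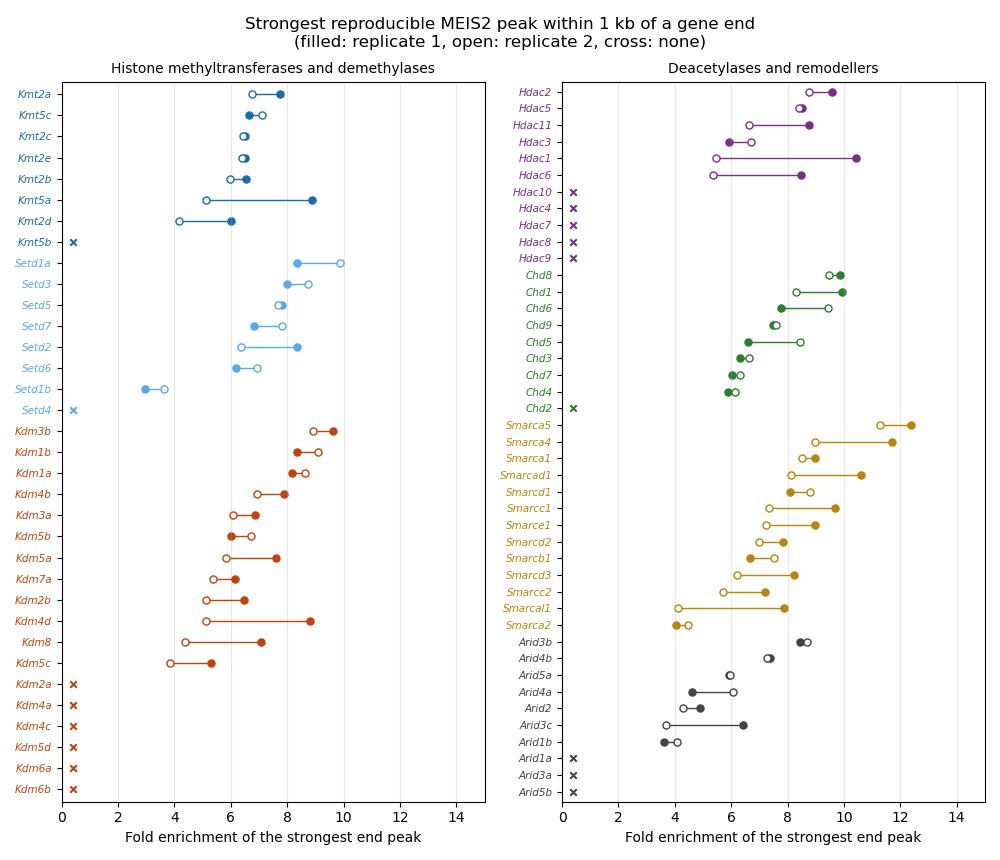
Fold enrichment (horizontal axis) of the strongest reproducible end peak of each of the 77 genes, in MEIS2 replicate 1 (filled) and replicate 2 (open), with a cross for genes that have none. Genes are coloured and grouped by family. Smarca5 has the strongest peak (12.4 and 11.3) and Setd1b the weakest (2.96 and 3.62).

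The 6 genes grouped here as H3K4 methyltransferases, Kmt2a to Kmt2d, Setd1a and Setd1b, all had an end peak. Those of Kmt2b, Kmt2d and Setd1b were also within 1 kb of an end of a neighbour, Zbtb32, Prkag1 and Rhof. Setd1a, a catalytic subunit of the COMPASS complex that methylates promoters, had the strongest, 8.35 and 9.88. Kmt2a, the MLL1 protein that keeps Hox genes active, followed at 7.75 and 6.76, and Kmt2c, which acts with Kmt2d at enhancers, at 6.51 and 6.43. Setd1b, the paralogue of Setd1a, had the weakest end peak of all 60 genes, 2.96 and 3.62.

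Of the 10 other methyltransferase genes 8 had an end peak. Setd3, which methylates actin, had 7.99 and 8.72, and Setd7, a lysine monomethyltransferase, 6.82 and 7.82. Setd5, whose loss of 1 copy causes intellectual disability in people, had 7.80 and 7.69. Kmt5c, which places methyl groups on H4K20, had 6.65 and 7.12, and Kmt2e, a PHD and SET domain protein, 6.49 and 6.40. The replicates lay close together for these genes, and less so for Kmt5a, the H4K20 monomethyltransferase, with 8.89 and 5.10.

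Each demethylase gene was put in a single substrate group. Of the 6 genes grouped as H3K4 demethylases 5 had an end peak. Of the 10 grouped as H3K9 and H3K36 demethylases, Kdm7a among them, 7 did. Of the 2 grouped as H3K27 demethylases, Kdm6a and Kdm6b, neither did. The Wilson intervals of these groups, 43.6% to 97.0%, 39.7% to 89.2% and 0% to 65.8%, overlapped. Kdm1a, the LSD1 protein that acts with CoREST to silence neuronal genes, had 8.17 and 8.62, and its relative Kdm1b 8.34 and 9.08. Kdm3b, an H3K9 demethylase, had the strongest end peak of the family, 9.62 and 8.90, and Kdm4b, which acts on H3K9 and H3K36, had 7.89 and 6.92. Kdm5c, the X-linked H3K4 demethylase mutated in an intellectual disability, had the weakest, 5.29 and 3.83, with only 8 and 5 tags stacked at the summit.

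Among the deacetylases, 3 of the 4 class I genes had an end peak, 1 of the 4 class IIa genes and 2 of the 3 class IIb and IV genes. Hdac2 and Hdac1 are the catalytic pair of NuRD, Sin3 and CoREST. Hdac2 had 9.58 and 8.77, and Hdac1 had 10.4 in replicate 1 but 5.46 in replicate 2, with 20 and 8 tags at the summit. Hdac3, the NCoR enzyme, had 5.93 and 6.70. Hdac5 was the class IIa gene with an end peak, 8.50 and 8.39, and Hdac11, the class IV enzyme, had 8.76 and 6.65.

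All of Chd3, Chd4 and Chd5, the NuRD ATPases, and all of Chd6 to Chd9 had an end peak. Chd8, one of the genes most often mutated in autism, had 9.84 and 9.48 at chr14:52257369-52258042 and a further peak at its 3′ end. Chd1, which binds methylated H3K4, had 9.94 and 8.28, Chd6 7.77 and 9.44 and Chd9 7.49 and 7.59. Chd7, the CHARGE syndrome gene, had 6.02 and 6.31. Only Chd2 had no reproducible end peak.

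The Smarc genes code for SWI/SNF and related proteins, and every one of them had an end peak. Smarca5, the ISWI ATPase SNF2H, had the strongest of all 77 genes, with 51 and 32 tags stacked at the summit. Smarca4, the SWI/SNF ATPase BRG1 needed in neural progenitors, had 11.7 and 8.96 at chr9:21615800-21616660, 9 bp from the end of the gene. The other SWI/SNF ATPase, Smarca2, had 4.03 and 4.46, lower in each replicate. Smarcad1 had 10.6 and 8.13 and Smarca1, the second ISWI ATPase, 8.97 and 8.50. All 7 core and accessory subunits had one, and among them Smarcd1 had 8.09 and 8.78. The end peaks of Smarcal1 and Smarcd2 were also within 1 kb of an end of a neighbour, Marchf4 and Tcam1. Neither of these genes had a peak within 1 kb of a listed start.

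Of the Arid genes, which code for DNA-binding proteins with an ARID domain, 2 of the 3 SWI/SNF subunits and 5 of the other 7 had an end peak. Arid3b had 8.43 and 8.68, Arid4b, a Sin3 subunit, 7.37 and 7.25, Arid5a 5.93 and 5.94, and Arid4a, the partner of Arid4b, 4.60 and 6.06. The peak of Arid1b, a SWI/SNF subunit mutated in Coffin-Siris syndrome, was among the weakest, 3.61 and 4.07. The Arid family thus had an end peak about as often as Kdm, and a weaker one.

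A pair or more of separate end peaks was seen at 10 of the 77 genes (13.0%) and at 5.03% of all protein-coding genes. These were Kmt2c, Kmt5c, Setd1a, Hdac3, Chd4, Chd5, Chd8, Smarca2, Arid2 and Arid4b. No Kdm gene was among them.

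The annotated end of a gene is not always the start that is used, and this mattered for the 17 genes without an end peak. RefSeq start sites were at hand for 58 genes, and 50 of these (86.2%) had a reproducible peak within 1 kb of a start, against 54.3% of the 17492 protein-coding genes with one. For 7 of the 17 genes a start inside the gene had a peak, and counting these raised the total to 67 of 77 genes, with all genes rising to 57.1%. By family, the total then took in all 13 Smarc, 8 Kmt and 8 Setd genes and 8 of 9 Chd genes. Arid had 8 of 10, Kdm 14 of 18 and Hdac 8 of 11 (72.7%). At listed starts alone Smarc did not lead. A peak was there at 10 of 12 Smarc genes, 6 of 6 Kmt, 5 of 5 Chd, 6 of 7 Setd, 6 of 7 Arid, 11 of 13 Kdm and 6 of 8 Hdac. Of the genes with a listed start, 2 Smarc genes and 1 Setd gene had an end peak but none at a start.

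**Figure D3:**
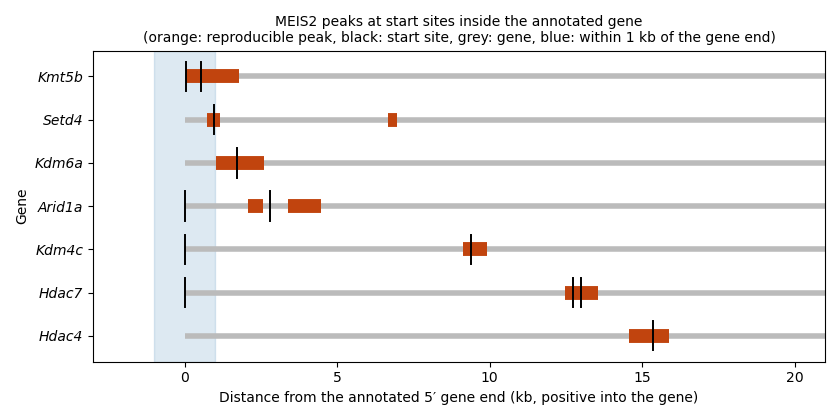
The 7 genes with a MEIS2 peak at an inner start site and no reproducible peak summit within 1 kb of a gene end. They are drawn by distance in kb from the annotated 5′ end (positive into the gene, shown in grey). The peaks of Kmt5b and Setd4 reach into the blue band, but their summits do not. Orange blocks are reproducible peaks, black lines RefSeq start sites, and the blue band is the 1 kb on either side of the gene end. The peaks of Kdm4c, Hdac7 and Hdac4 lie over starts 9.38, 13.0 and 15.4 kb inside.

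In Hdac4, a class IIa deacetylase that shuttles between cytoplasm and nucleus, the start with a peak was 15.4 kb inside the gene and the peak had 7.77 and 7.37. Hdac7, of the same class, had 7.60 and 7.35 at a start 13.0 kb inside, and Kdm4c 8.35 and 6.76 at 9.38 kb. Kdm6a, the X-linked H3K27 demethylase UTX, had 7.56 and 5.24 at a start 1.71 kb inside, and Kdm6b, grouped with it, has no listed start. Arid1a, the SWI/SNF subunit most often mutated in cancer, had 4.07 and 4.10 beside a start 2.78 kb inside. Kmt5b had 6.74 and 6.12 and Setd4 7.43 and 6.70 at starts less than 1 kb inside, with summits 1.42 and 1.04 kb inside. The fold enrichments at these inner starts were thus in the range of the end peaks of other members.

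The other 10 genes were Arid3a, Arid5b, Chd2, Hdac8, Hdac9, Hdac10, Kdm2a, Kdm4a, Kdm5d and Kdm6b. Their nearest reproducible peaks were 1.31 kb inside Kdm2a (6.43 and 8.11), 2.08 kb outside Kdm4a (8.73 and 7.56), 2.27 kb inside Arid5b (8.97 and 6.25) and 3.89 kb inside Chd2 (6.47 and 5.74). Hdac8, with the nearest peak 33.1 kb away, and the Y-linked Kdm5d, 42.5 kb away, had none close by. The sex of the embryos was not in the labels used here. Of the 10 genes, Arid3a, Chd2, Hdac10, Kdm2a and Kdm6b have no listed start, so a peak at a start could not be looked for. The other 5 had a listed start but no peak within 1 kb of one. Of all 17 genes, 11 had no end peak in either MEIS2 library, 1 had one in replicate 1 only, 4 in replicate 2 only, and Hdac10 had one in each replicate that did not overlap. Peaks shared with the no-antibody library were kept in these counts, and the replicate 2 peak of Setd4 was such a peak.

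Kdm6b, the H3K27 demethylase JMJD3 that is active during neuronal differentiation, had unlike peak counts in the MEIS2 libraries, looked at once the values had been seen. Replicate 1 had 13 peaks in the gene and 50 kb around it with a median fold enrichment of 4.93, replicate 2 had 5 with a median of 4.10, and the no-antibody library had none. None of them was a reproducible distal peak, and the nearest reproducible peak, 29.7 kb away, is the end peak of its neighbour Chd3 (6.30 and 6.62). The medians of the whole lists were 6.36 and 5.74, so the Kdm6b medians were below them in both libraries. Other genes had a like gap in peak counts. The window of Chd3, which overlaps that of Kdm6b, held 13 and 6 peaks, and that of Chd5 22 and 11.

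Away from gene ends, a distal peak has its summit more than 1 kb from every annotated gene end, and it was counted in the gene and 50 kb on either side. There were 261 distal peaks around the 77 genes, none counted for more than 1 gene, with 110 inside genes and 151 outside. At least 1 was present at 73 genes (94.8%), against 80.8% of all protein-coding genes. Kdm6b, Chd1, Smarca1 and Arid4b had none. Around Smarca1 and Arid4b, peaks of both MEIS2 libraries had been left out because they overlapped no-antibody peaks. They had 19.1 and 15.5, and 8.63 and 8.81, at Smarca1, and 13.3 and 11.1, and 14.1 and 12.8, at Arid4b. Per 100 kb of window the mean was 2.05 ± 0.158 (SE over 77 genes), with a mean of 1.67 over all protein-coding genes. With each library alone it was 3.75 in replicate 1, 3.15 in replicate 2 and 0.151 without antibody, beside 3.02, 2.69 and 0.243 for all genes.

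Length bears on this measure too. In the longest class the mean was 1.71 for the chromatin genes and 1.41 for all, in the next class 2.40 and 1.71, and in the one from 5.67 kb upward 2.59 and 1.92. Some distal peaks sit at inner starts, and when peaks within 1 kb of any RefSeq start were left out, 231 remained, with a mean of 1.80 per 100 kb against 1.53 for all genes. The chromatin genes had the higher mean in each of these comparisons.

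**Figure D4:**
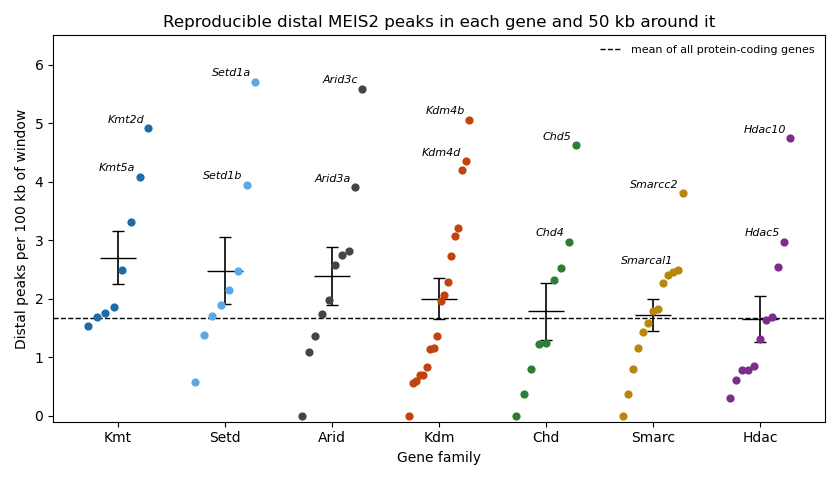
Reproducible distal MEIS2 peaks per 100 kb in each gene and 50 kb on either side, 1 point a gene, by family. Horizontal black lines are family means with SE, and the dashed line is the mean of all protein-coding genes (1.67). Single genes such as Setd1a (5.70), Arid3c (5.59) and Kdm4b (5.06) lie far above their family means.

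By family the order differed from that at gene ends. The mean per 100 kb was 2.70 ± 0.448 in Kmt, 2.48 ± 0.574 in Setd, 2.38 ± 0.494 in Arid, 2.00 ± 0.351 in Kdm, 1.79 ± 0.486 in Chd, 1.72 ± 0.281 in Smarc and 1.66 ± 0.396 in Hdac (SE over the genes of each). This order changed with the settings: Setd was first at −log10 q of at least 5 and without replicate 1, and Smarc, Chd or Hdac was last. Genes within a family spread widely, and the differences between families were not tested. The 6 H3K4 methyltransferase genes had the highest mean of the role groups with 6 or more genes, 3.38 ± 0.711, and the 6 H3K4 demethylase genes a mean of 1.30 ± 0.255.

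Among the methyltransferases, Kmt2d and Setd1a had the most distal peaks, 7 each, and Kmt2c, Kmt5a, Kmt5b and Setd1b had 5 each. In Kmt2d 5 of the 7 were inside the gene, the one at its listed start among them, and in Setd1a 5 of the 7 were outside it. Among the demethylases, Kdm4b had 9, all outside the gene, Kdm2b 7 and Kdm4a and Kdm4d 6 each. One of the Kdm2b peaks, 9.88 and 9.65 at chr5:122899703-122900785, covers the inner start whose promoter is shown above, and it is stronger than the end peak of the gene, 6.45 and 5.11. Arid1b, with 353 kb the longest Arid gene, had 9 distal peaks, 8 of them inside it, and the strongest, 7.86 and 7.01, exceeded its end peak in both replicates. All 7 distal peaks of Chd7 were inside the gene, and the strongest had 8.78 and 9.52. Chd5 also had 7, from 18 in replicate 1 and 8 in replicate 2, and none of them was above 4.38 in the weaker replicate.

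In the other families, Hdac4, Hdac9, Arid2 and Arid3c had 6 distal peaks each and Hdac10, Chd2, Smarcal1, Smarcc1 and Smarcc2 had 5 each. Hdac1 and Hdac2 had 1 each, and Smarca4 had 3. The class I deacetylases together had 5 distal peaks around 4 genes.

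Distal peaks of these genes were on the whole weaker and narrower than their end peaks. The median fold enrichment of the weaker replicate was 5.24 for the 261 distal peaks and 6.18 for the 70 end peaks, and the median width in replicate 1 was 333 and 680 bp. Over all reproducible peaks the medians were 5.88 for distal and 6.01 for end peaks. Few of either kind reached the 90th percentile of all 47809: 10 of the 261 distal peaks and 1 of the 70 end peaks, that of Smarca5. Both shares were below the 10% of all reproducible peaks that reach it by definition. The strongest peaks of these genes were distal even so.

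**Figure D5:**
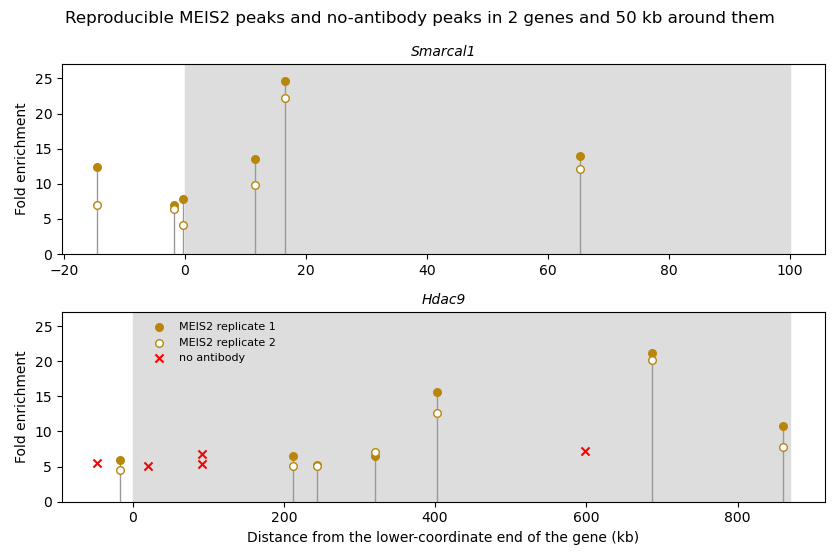
Fold enrichment of reproducible peaks along Smarcal1 and Hdac9, by distance in kb from the lower-coordinate end of each gene (gene in grey). Filled and open circles are MEIS2 replicates 1 and 2, and red crosses are no-antibody peaks. The strongest peaks reach 24.6 and 22.3 in Smarcal1 and 21.2 and 20.1 in Hdac9.

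The strongest peak of all lay inside the gene RefSeq annotates as Smarcal1, an annealing helicase of replication forks, at chr1:72553156-72553554. It had 24.6 and 22.3, with 79 and 75 tags at the summit, and a percentile of 99.9 among all reproducible peaks. There were 2 more strong ones in the gene, 14.0 and 12.2 at chr1:72601851-72602188 and 13.6 and 9.85 at chr1:72548053-72548385. The only listed Smarcal1 start is 46.6 kb inside the annotated gene, so the first and the last of these 3 peaks are before that start, between it and Marchf4, with which Smarcal1 shares its end peak (7.88 and 4.13). The map of Smarcal1 shows that its end peak is the weakest of its peaks in replicate 2.

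Hdac9, a class IIa deacetylase gene of 870 kb, had no end peak and none at its listed starts, but 2 strong peaks inside, 21.2 and 20.1 at chr12:34733471-34734020 and 15.6 and 12.6 at chr12:34450145-34450566. Other distal peaks above the 90th percentile were 15.3 and 13.3 at chr6:71662992-71663305, 30.2 kb outside Kdm3a, 13.0 and 13.1 at chr12:108082950-108083490, 23.1 kb outside Setd3, and 13.5 and 12.7 at chr10:68196157-68196454 inside Arid5b. Around Smarcad1 there were 2, 14.3 and 12.5 at chr6:65106103-65106665 inside the gene and 12.3 and 17.6 at chr6:65164433-65164920 outside it. Kdm4d had one with 13.6 and 11.0. These are the nearest chromatin genes by the window used, and no link between a distal peak and a gene was measured.

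The no-antibody library had 27 peaks around 17 of the 77 genes (22.1%), while 26.6% of all protein-coding genes had one. Hdac9 and Smarca1 had 5 each, Hdac8 and Arid4b 2 each, and Kmt2b, Kmt5c, Setd3, Setd4, Kdm4c, Kdm5d, Kdm8, Chd7, Smarcd2, Arid1b, Arid3b, Arid5a and Arid5b 1 each. Of the 27, 13 overlapped a peak of both MEIS2 libraries and 9 a peak of neither. Some of the 13 were stronger with the antibody: near Chd7 the fold enrichment was 19.4 and 19.1 with it and 4.62 without, in Arid5b 16.8, 14.6 and 5.03, and near Smarca1 19.1, 15.5 and 5.53. Such peaks were left out of the counts above; with them kept, the distal count was 274 in place of 261 and the end count stayed at 60.

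Partners of these proteins that the symbol rule does not take in were read the same way, in 8 lists of 106 genes. An end peak was present at 91 of the 106 (85.8%, interval 78.0% to 91.2%), beside the 52.4% of all protein-coding genes, and the mean was 1.97 ± 0.168 distal peaks per 100 kb (SE), beside 1.67. These genes too were longer, with a median of 38.6 kb beside 17.2 kb, and they were not compared within length classes. All 12 other histone methyltransferases had an end peak, among them Ehmt1, an H3K9 methyltransferase (11.2 and 10.6), and Setdb1 (11.8 and 9.81). Polycomb genes had 21 of 23, NuRD and Sin3 partners 15 of 16, with the histone-binding Rbbp4 at 10.5 and 10.6, and SWI/SNF partners 15 of 16, with Pbrm1 at 10.9 and 11.3. INO80 and ISWI partners had 9 of 11, acetyltransferases 7 of 9, and DNA methylation genes 7 of 10, with the demethylation enzyme Tet2 at 11.2 and 10.5. The COMPASS partners, which work with Kmt2 and Setd1 enzymes, had 5 of 9 (55.6%, interval 26.7% to 81.1%), near the share of all genes, with no end peak at Ash2l, Cxxc1, Dpy30 or Rbbp5. Starts inside the partner genes were not checked, and reproducible peaks did lie inside Ash2l, Cxxc1 and Dpy30.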

How the data were processed

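CUT&Tag peaks were read from 1 deposited list per library: 2 MEIS2 libraries and 1 without antibody. Per the file headers, the authors called peaks in each library alone with MACS 2.2.7.1, with no control and a q cutoff of 0.05. MACS2 2.1.4 is the version in the submitters' processing notes, which also list Bowtie2 2.3.4, Picard, Trimmomatic and mm10. The deposited signal is the pileup, the tags stacked at the summit, with no scaling for depth. Fold enrichment, as deposited, is a ratio to the local background, and the deposited −log10 p-values and −log10 q-values are those of each library. The caller kept 7618406 of 74259592, 6559629 of 79760948 and 6337375 of 72763762 tags.

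Computed here, with Python 3.11.15 and pandas 2.3.3, were overlaps of at least 1 bp, summit distances to RefSeq gene ends (GRCm38.p6) and 95% Wilson intervals. A shared peak took its position from replicate 1. Exons and introns were not separated. The 8 promoter runs come from the RefSeq promoter table, which matched 58 of 77 genes; the CCAAT and GC box motifs and the Setd7 run were picked once the sequences had been seen. The steps were tested on simulated peaks. Named in each family were up to 4 genes with the strongest end peaks and up to 3 with the most distal peaks, genes with no end peak or with a no-antibody peak, and 10 fixed genes; Setd1b, Smarca2, Arid3c, Kmt5a, the strongest distal peaks and the named partners were picked once values had been seen. The genes and lists were chosen with earlier results of these data known. No test was made, since the control is 1 library. The alternatives were the overlap, the q threshold, each replicate alone, shared no-antibody peaks kept, the peak position, the distances and the window.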

Additional observations from a re-analysis of the deposited data

How the results depend on the processing

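The number of genes with an end peak was 47 to 67 under the alternatives run, and the share stayed above that of all protein-coding genes in each. It was 47 at −log10 q of at least 5, where all genes had 40.3%, 48 at 50% reciprocal overlap (45.4%), 51 within 500 bp (43.2%), 67 within 2.5 kb (60.7%) and 62 to 64 with a replicate left out. Counting inner starts was chosen after seeing the data. By family, 3 counts moved by over 1.5 times: Arid to 4 at the stricter q, Chd to 5 within 500 bp and Kdm to 7 at reciprocal overlap. Kdm was then below all genes (38.9% against 45.4%), and Arid at the stricter q was just below them (40% against 40.3%). Hdac was below all genes within 2.5 kb (54.5% against 60.7%). The family with the highest share was Smarc in the report, Chd at the stricter q, and Setd at reciprocal overlap and within 500 bp.

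Distal counts moved more. At −log10 q of at least 5 there were 152 distal peaks in all, with 26 in Arid, 16 in Chd, 18 in Hdac, 32 in Kdm and 18 in Kmt. With a window of 100 kb there were 417, with 50 in Chd, 53 in Hdac, 97 in Kdm, 54 in Kmt, 45 in Setd and 57 in Smarc, while the mean per 100 kb was 2.05, against 1.67 for all genes. With a MEIS2 replicate left out the count was 409 to 462, with 65 to 70 in Arid, 49 to 65 in Chd, 60 to 64 in Hdac, 87 to 97 in Kdm, 46 to 59 in Kmt, 44 to 48 in Setd and 58 to 59 in Smarc. The cause of these shifts is the construction of each setting: fewer peaks, a wider window, or no second list to match. The family with the highest distal mean was Kmt, except at the stricter q and without replicate 1, where it was Setd. The lowest was Hdac, Chd or Smarc, depending on the setting. The mean per 100 kb over the 77 genes stayed above that of all genes in each, with 1.15 and 0.970 at the stricter q.

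No paired analysis was possible because the labels tie no MEIS2 library to the no-antibody library, whose number here only follows accession order, and no test was made. Weak peaks rest on few tags, as at Kdm5c, with 8 and 5 at the summit, and depth limits what can be said of genes without a peak.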
